A study of Mus musculus with 21 samples.

Results

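The cornified envelope is the shell of cross-linked protein and lipid that replaces the plasma membrane of a keratinocyte as it becomes a dead, flattened cell of the skin surface. The genes described here were chosen by symbol. They are those of the Lce, Sprr and Tgm families together with Lor, Flg, Flg2, Ivl, Hrnr, Rptn, Tchh, Tchhl1, Crnn, Crct1, Lelp1, Cnfn, Sbsn, Krtdap, Dmkn, Cdsn, Csta1 and Casp14, and they make up 67 of the 22050 entries measured, under 61 symbols. Flg stands in 7 entries, of which 6 were at 0 in every sample, and its values below are those of the remaining entry.

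The data are mRNA profiles of keratinocytes from the dorsal skin of mice of mixed FVB, C57Bl and 129sv background. The p16 group carried K5-rtTA/tet-GFP/tet-p16 and the control group K5-rtTA/tet-GFP, so that in both groups rtTA, made under the keratin 5 promoter of basal epidermal cells and the follicle's outer layers, switched on GFP under doxycycline, and in the p16 group it also switched on human p16. All mice received doxycycline from 3 weeks of age for 6 months. Each group had 4 samples of 80000 GFP-expressing cells pooled from 3 mice. They were sorted after cells with surface markers of fibroblasts, immune cells and endothelium had been gated out. GFP marks cells in which the GFP transgene was or had been on, and p16 was not measured cell by cell in these samples. Libraries held the 3′ ends of transcripts. Control replicates 1 to 4 had 3414362, 2068248, 3067190 and 1760953 reads on genes, and p16 replicates 1 to 4 had 3150237, 3202975, 2884544 and 3169274. Values are read counts divided by a size factor per sample (normalized values), and 1 read was worth between 0.742 and 1.53. The human CDKN2A transgene had 2, 13, 18 and 9 reads in the p16 samples in that order and 1, 1, 3 and 1 in the controls. The library labelled p16 replicate 1 thus lay within the range of the controls for its own transgene. Calls on the envelope genes are also given without it, but those on the other gene lists are not.

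In the epidermis, basal cells that leave the basement membrane first make early envelope proteins such as involucrin and the small proline-rich proteins, which transglutaminases fasten beneath the membrane. Granular cells nearer the surface then add loricrin, the late cornified envelope (Lce) proteins and the filaggrin family, and caspase-14 and other proteases process these as the cell dies. Many of the genes lie side by side in the epidermal differentiation complex, and the order in which they come on is used to tell early from late differentiation. The early and late lists used here were set by what the genes are known to do. They and the other gene lists were drawn up with earlier results of these data known. Besides proteins cross-linked into the envelope, the early list holds Sbsn, Dmkn and Krtdap, which encode secreted proteins.

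In p16 cells, 6 of these genes were higher and 4 lower. Those that were higher are all late envelope genes, namely loricrin (Lor), transglutaminase 3 (Tgm3), Lce1m, Lce1c, Lce1a1 and Lce1b. Those that were lower are Sprr1a, Sbsn and Ivl (involucrin), all from the early list, and the transglutaminase Tgm2. Of the 67 entries, 46 had a read in any sample, 40 reached a mean of 1 and were tested, and 27 were not tested. A gene was called when its Benjamini-Hochberg adjusted p in limma, over the 12782 genes tested on log2(normalized value + 1), was under 0.05. Over all genes tested 1.24% were called higher and 2.61% lower, against 15% and 10% of the tested genes of this set. All 4 p16 values lay above all 4 control values at 5 of the 40 genes and below them at 5, where 4.19% and 5.63% of all genes tested did so. Without the library labelled p16 replicate 1, 9 genes were called higher and 3 lower. Among those higher, Lce1e had a control mean under 1 and was tested because of its level in p16 cells. The numbers called higher and lower were 4 and 3 without control replicate 1, 3 and 5 without control replicate 2, 5 and 3 without control replicate 3 and 4 and 4 without control replicate 4. Among p16 samples, the counts became 2 and 4 without replicate 2, 3 and 4 without p16 replicate 3 and 3 and 4 without p16 replicate 4. Dropping the third replicate of each group, for which the library protocol is described in other words, gave 3 and 2. Lor, Tgm3, Sprr1a and Tgm2 were called in each of the 17 other fits. In bulk samples such as these, fewer cells of a type and less RNA per cell cannot be told apart.

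**Figure D1:**
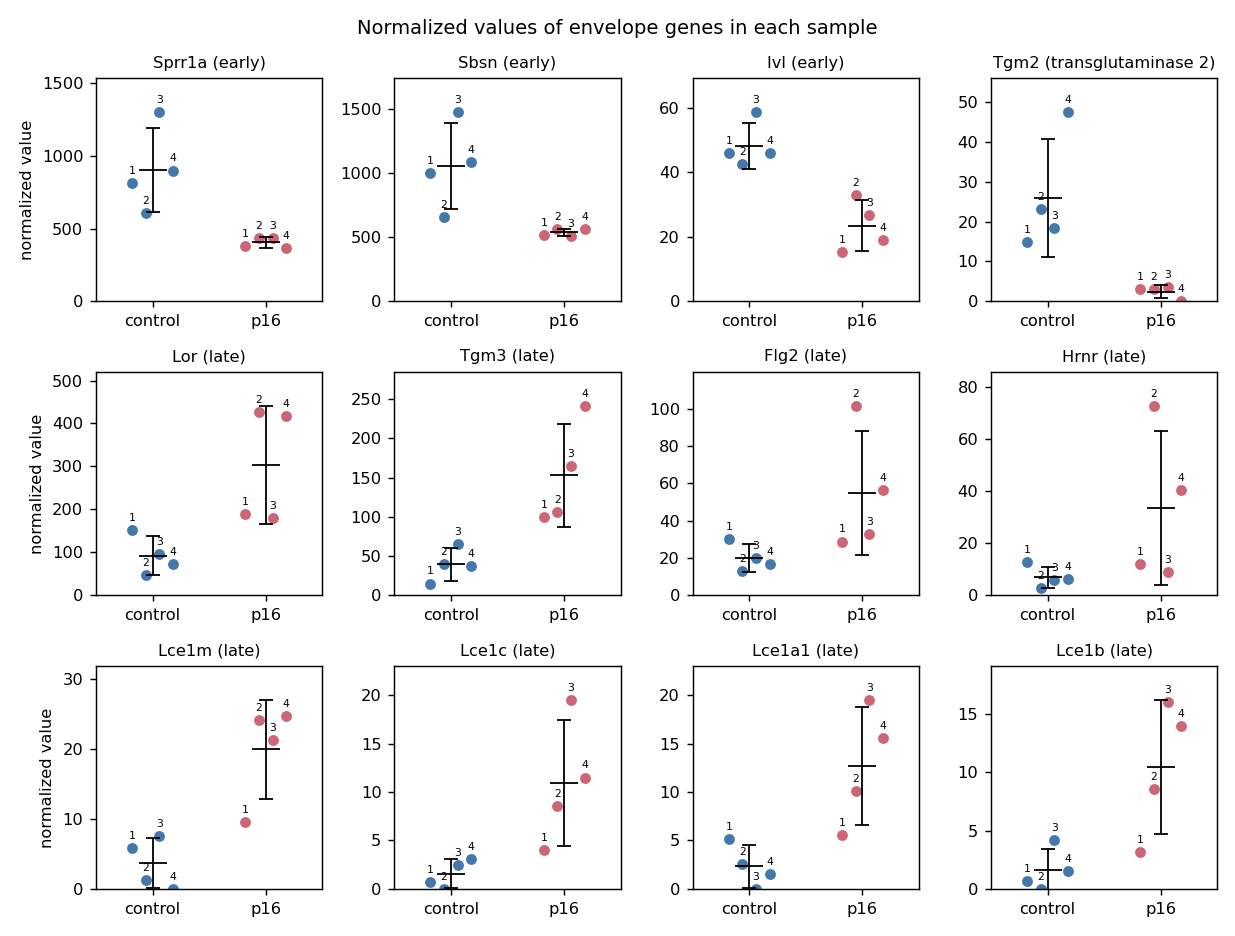
Normalized values (vertical axes, linear and starting at 0) of 12 genes in the 4 control and 4 p16 samples, numbered by replicate, with bars and whiskers for mean and SD. The 4 p16 points of Sprr1a, Sbsn, Ivl and Tgm2 lie below every control point, those of Lor, Tgm3, Lce1m, Lce1c and Lce1a1 lie above, and those of Flg2, Hrnr and Lce1b overlap with the controls.

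All 9 genes of the early list were tested. Sprr1a (ENSMUSG00000050359, chromosome 3, 92483952 to 92485895, minus strand of GRCm38), a small proline-rich protein cross-linked into the early envelope, measured 812.3, 603.2, 1297.1 and 898.3 in the controls (replicates 1 to 4, the order used throughout) and 379.8, 435.7, 434.5 and 368.3 in the p16 samples. Every p16 sample was below every control, and the p16 samples lay close together while control replicate 3 stood highest. The means were 903 ± 291 and 405 ± 35.6 (SD, n = 4 each), 2.23-fold lower, with a difference on the log2 scale of -1.11 ± 0.17 (standard error; limma adjusted p = 0.00225). Suprabasin, a secreted protein of the suprabasal layers encoded by Sbsn (ENSMUSG00000046056, chromosome 7, 30751471 to 30756134, plus strand), had 1000.7, 654.5, 1469.9 and 1084.7 in control cells and 512.5, 559.8, 510.7 and 559.1 in p16 cells. Again the groups did not overlap, with control replicate 2 nearest to the p16 samples. Sbsn was 1.97-fold lower (log2 fold change -0.92, standard error 0.18, limma adjusted p = 0.00905), and without the third replicate of each group the limma adjusted p was 0.0544. An annotated transcript of Tmem147os on the same strand shares 75.2% of the 50-base words in the last 300 bases of the Sbsn transcripts, so the values may hold reads of both. Ivl (ENSMUSG00000049128, chromosome 3, 92570902 to 92573735, minus strand), the scaffold on which the envelope is built, had 46, 42.4, 58.5 and 45.8 in control cells and 15.2, 32.8, 26.6 and 18.9 in p16 cells. The highest p16 value, in replicate 2, was under the lowest control. Ivl fell from 48.2 ± 7.08 to 23.4 ± 7.88 (SD, n = 4 each; log2 fold change -1.06, standard error 0.24, limma adjusted p = 0.0215). Its limma adjusted p was 0.0610 without control replicate 1, 0.0730 without control replicate 3, 0.0685 without the library labelled p16 replicate 1 and 0.0976 without the third replicate of each group. For Sprr1a, Sbsn and Ivl the exact two-sided permutation test gave p = 0.0286, the smallest that 4 samples against 4 allow.

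The other 6 early genes did not pass the adjusted threshold. Sprr1b, the close relative of Sprr1a, had 8.2, 5.1, 72.7 and 27.5 in control cells and 3.2, 10.9, 22.2 and 2.5 in p16 cells (log2 fold change -1.22, standard error 0.72, limma adjusted p = 0.456). Its values were spread widely in both groups, with control replicate 3 the highest. Tgm1, the transglutaminase that anchors the envelope at the membrane, was near the limit of counting, with 10, 0, 8 and 4 reads in controls and 0, 1, 1 and 5 in p16 samples (limma adjusted p = 0.452). Tgm5, another transglutaminase of the upper epidermis, had 40.0 ± 4.74 in control cells and 37.4 ± 13.1 in p16 cells (SD, n = 4 each; limma adjusted p = 0.832), and p16 replicate 4 was the lowest sample at 21.4. Dermokine (Dmkn), secreted by suprabasal cells and a neighbour of Sbsn and Krtdap on chromosome 7, had 1333.1, 1122.9, 1893.4 and 1385.7 in control cells and 1114.6, 1114.9, 1158.9 and 1443.0 in p16 cells (log2 fold change -0.23, standard error 0.14, limma adjusted p = 0.474). Krtdap, a secreted protein associated with keratinocyte differentiation, had 827.1, 649.4, 1146.7 and 728.8 and 945.1, 840.1, 1026.8 and 962.0 (log2 fold change 0.20, standard error 0.14, limma adjusted p = 0.562). The groups overlapped for both, so that of these 3 neighbours on chromosome 7 Sbsn alone was called. Csta1, a cysteine protease inhibitor of the envelope, had 5.2, 2.6, 30.1 and 9.2 in control cells and 13.6, 14.8, 16.8 and 10.7 in p16 cells (limma adjusted p = 0.571), with both the lowest and the highest value among the controls.

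Lor (ENSMUSG00000043165, chromosome 3, 92080271 to 92083142, minus strand), which encodes the main protein of the mature envelope, measured 152.8, 47.5, 95.2 and 71.8 in control cells and 188.7, 426.3, 179.1 and 416.9 in p16 cells. Every p16 sample was above every control, and p16 replicates 2 and 4 were the highest. Lor rose from 91.8 ± 45.1 to 303 ± 137 (SD, n = 4 each), 3.30-fold, with a difference on the log2 scale of 1.72 ± 0.33 (standard error; limma adjusted p = 0.00951; exact two-sided permutation p = 0.0286). Tgm3 (ENSMUSG00000027401, chromosome 2, 130012349 to 130050399, plus strand), the transglutaminase that cross-links late envelope proteins and hair proteins, had 14.8, 39.8, 65.1 and 36.7 in control cells and 99.1, 105.4, 164.9 and 240.9 in p16 cells. The groups did not overlap, with control replicate 1 the lowest and p16 replicate 4 the highest. Tgm3 rose 3.90-fold (log2 fold change 2.01, standard error 0.36, limma adjusted p = 0.00588; exact two-sided permutation p = 0.0286). Without the library labelled p16 replicate 1 the log2 fold changes were 1.90 for Lor and 2.19 for Tgm3.

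In the filaggrin family, whose proteins bundle keratin and are broken down to the moisturising factors of the surface, no gene was called. Flg2, filaggrin 2, had 30.4, 12.8, 20 and 16.8 in control cells and 28.8, 101.5, 32.8 and 56.7 in p16 cells, with a difference on the log2 scale of 1.30 ± 0.35 (standard error; limma adjusted p = 0.0596). In 3 of the 4 p16 samples it was above every control, and p16 replicate 1 was under control replicate 1. Hornerin (Hrnr) had 12.6, 2.6, 5.8 and 6.1 in control cells and 12, 72.6, 8.9 and 40.3 in p16 cells, with a difference on the log2 scale of 1.84 ± 0.57 (standard error; limma adjusted p = 0.0963). Here p16 replicates 2 and 4 stood above every control and the other p16 samples lay among them. Neither passed the threshold in limma on all samples, in edgeR (adjusted p = 0.0725 and 0.0846) or in limma with other filters and scalings. Each passed in 2 of 17 other fits. Both passed with DESeq2 on the recovered reads (adjusted p = 0.0126 and 0.00967), and in limma Flg2 passed without the library labelled p16 replicate 1 (adjusted p = 0.0432) and Hrnr without p16 replicate 3 (adjusted p = 0.0377). Flg itself, profilaggrin, had 40.8, 10.3, 40.9 and 26 in control cells and 8, 43.7, 20.4 and 25.5 in p16 cells (log2 fold change -0.31, standard error 0.47; exact two-sided permutation p = 0.657), and was not called. The groups overlapped, with p16 replicate 1 the lowest sample and p16 replicate 2 the highest, and its 95% interval on the log2 scale ran from -1.31 to 0.69. Repetin (Rptn) had 7, 4, 5 and 0 reads in control cells and 3, 5, 2 and 2 in p16 cells (limma adjusted p = 0.926).

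Casp14, a protease that cuts filaggrin, had 161.7, 174.5, 151.2 and 241.4 in control cells and 126.3, 116.3, 149.0 and 138.1 in p16 cells. Every p16 value was below every control, by a small margin at p16 replicate 3, and the log2 fold change was -0.44 (standard error 0.15; exact two-sided permutation p = 0.0286). After adjustment it was not called (limma adjusted p = 0.131). Cornifelin (Cnfn), a component of the envelope, had 18.5, 12.8, 29.2 and 18.3 in control cells and 18.4, 31.2, 31.9 and 47.7 in p16 cells (log2 fold change 0.67, standard error 0.30, limma adjusted p = 0.285), with 3 of the 4 p16 samples above every control. Corneodesmosin (Cdsn), the adhesive protein of the modified desmosomes between surface cells, had 92.7, 66.7, 162.9 and 56.5 and 73.6, 103.1, 80.7 and 122.5 (log2 fold change 0.10, standard error 0.27, limma adjusted p = 0.914), and the p16 samples all lay within the range of the controls.

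The Lce proteins are small, cysteine-rich and proline-rich proteins added to the inner face of the envelope late in differentiation. All 14 Lce1 genes were tested, and 4 were called higher and 0 lower (5 and 0 of the 7 with a control mean of at least 1 had an unadjusted p under 0.05 in limma). They were low, and the other 7 had a mean under 1 in control cells and were tested because of their level in p16 cells, which sets the sign of their fold change. Over the 7 with a control mean of at least 1, the median log2 fold change was 2.20, where the median over all genes tested was -0.00. Lce1m (ENSMUSG00000027912, chromosome 3, 93017810 to 93019060, minus strand) had 5.9, 1.3, 7.5 and 0 in control cells and 9.6, 24.2, 21.3 and 24.7 in p16 cells, from 18 and 97 reads over the groups. All p16 samples were above all controls, and p16 replicate 1 was the lowest of them. On the log2 scale it differed by 2.54 ± 0.58 (standard error; limma adjusted p = 0.0235). Lce1c (ENSMUSG00000042092, chromosome 3, 92679247 to 92680918, plus strand) had 0.7, 0, 2.5 and 3.1 in control cells and 4, 8.6, 19.5 and 11.5 in p16 cells, with a difference on the log2 scale of 2.24 ± 0.53 (standard error; limma adjusted p = 0.0282). Lce1a1 (ENSMUSG00000057609, chromosome 3, 92646535 to 92648307, minus strand) had 5.2, 2.6, 0 and 1.5 in control cells and 5.6, 10.1, 19.5 and 15.6 in p16 cells, with a difference on the log2 scale of 2.20 ± 0.53 (standard error; limma adjusted p = 0.0319). For Lce1c and Lce1a1 the p16 samples also lay above every control, but p16 replicate 1 did so by little. Lce1b (ENSMUSG00000027923, chromosome 3, 92655650 to 92656926, minus strand) had 0.7, 0, 4.2 and 1.5 in control cells and 3.2, 8.6, 16 and 14 in p16 cells, with a difference on the log2 scale of 2.22 ± 0.55 (standard error; limma adjusted p = 0.0387), and its p16 replicate 1 was under control replicate 3.

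Calls on single Lce1 genes were often lost when a sample was dropped. Leaving out 1 sample at a time, Lce1m passed the threshold in 5 of 8 fits, Lce1c and Lce1a1 in 3 and Lce1b in 2. The limma adjusted p of Lce1m was 0.0674 without control replicate 2, 0.0571 without p16 replicate 2 and 0.0651 without p16 replicate 3. For Lce1c it was 0.0898 without control replicate 1, 0.0686 without control replicate 2, 0.0533 without p16 replicate 2, 0.107 without p16 replicate 3 and 0.0535 without p16 replicate 4. For Lce1a1 it was 0.0709 without control replicate 3, 0.0727 without control replicate 4, 0.0543 without p16 replicate 2, 0.110 without p16 replicate 3 and 0.0621 without p16 replicate 4. For Lce1b it was 0.114 without control replicate 1, 0.0941 without control replicate 2, 0.0687 without control replicate 4, 0.0702 without p16 replicate 2, 0.128 without p16 replicate 3 and 0.0830 without p16 replicate 4. The log2 fold changes with 1 sample left out were 1.95 to 2.98 for Lce1m, 1.86 to 2.60 for Lce1c, 1.72 to 2.59 for Lce1a1 and 1.84 to 2.64 for Lce1b. Without the library labelled p16 replicate 1 Lce1a2 and Lce1e were called as well (limma adjusted p = 0.0364 and 0.0409, against 0.0943 and 0.0853 with it). Lce1e had a control mean under 1 and was tested because of its level in p16 cells, which sets its sign, so its call adds no evidence of a rise. A pseudocount of 0.1 ended the calls of Lce1m, Lce1c, Lce1a1 and Lce1b (limma adjusted p = 0.0943, 0.0855, 0.108 and 0.0928), while their log2 fold changes were larger there, at 3.56, 3.39, 3.23 and 3.38. Dropping the third replicate of each group ended those of Lce1c, Lce1a1 and Lce1b (0.114, 0.199 and 0.0766), and a filter at a mean of 5 that of Lce1b (0.0558).

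Of the remaining 10 Lce1 genes, none of them called, Lce1d and Lce1i had 9 and 8 reads over the control samples and 36 and 25 over the p16 samples. The other 7 apart from Lce1a2 (5 and 32 reads) had 1 to 3 control reads each. Their ratios of reads, scaled for depth, ran from 2.45 (95% interval 0.611 to 14.1) for Lce1h to 16.3 (95% interval 2.61 to 676) for Lce1g, and these exact intervals cover counting error only. Because the Lce1 transcripts are alike, up to 32.7% of the 50-base words in the last 300 bases of a single gene (Lce1b) occur in another gene, and the counting could have split or dropped such reads. Summed over the 14 genes, the values were 20.7, 6.5, 27.5 and 15.2 in controls and 29.6, 74.2, 144.6 and 135.7 in p16 samples, from 28, 5, 33 and 10 reads and 37, 95, 163 and 165 reads. The summed values of the p16 samples were all above those of the controls, p16 replicate 1 by little, and their mean was 5.49-fold higher. Lce6a had 0.7, 1.3, 3.3 and 0 in control cells and 3.2, 1.6, 4.4 and 4.9 in p16 cells (limma adjusted p = 0.316). The Lce3 genes, known from injured and inflamed skin, were at or near 0. Lce3a, Lce3b, Lce3d and Lce3e had no read, Lce3c had 2 reads in each group and Lce3f had 0 and 3, too few for a fold.

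**Figure D2:**
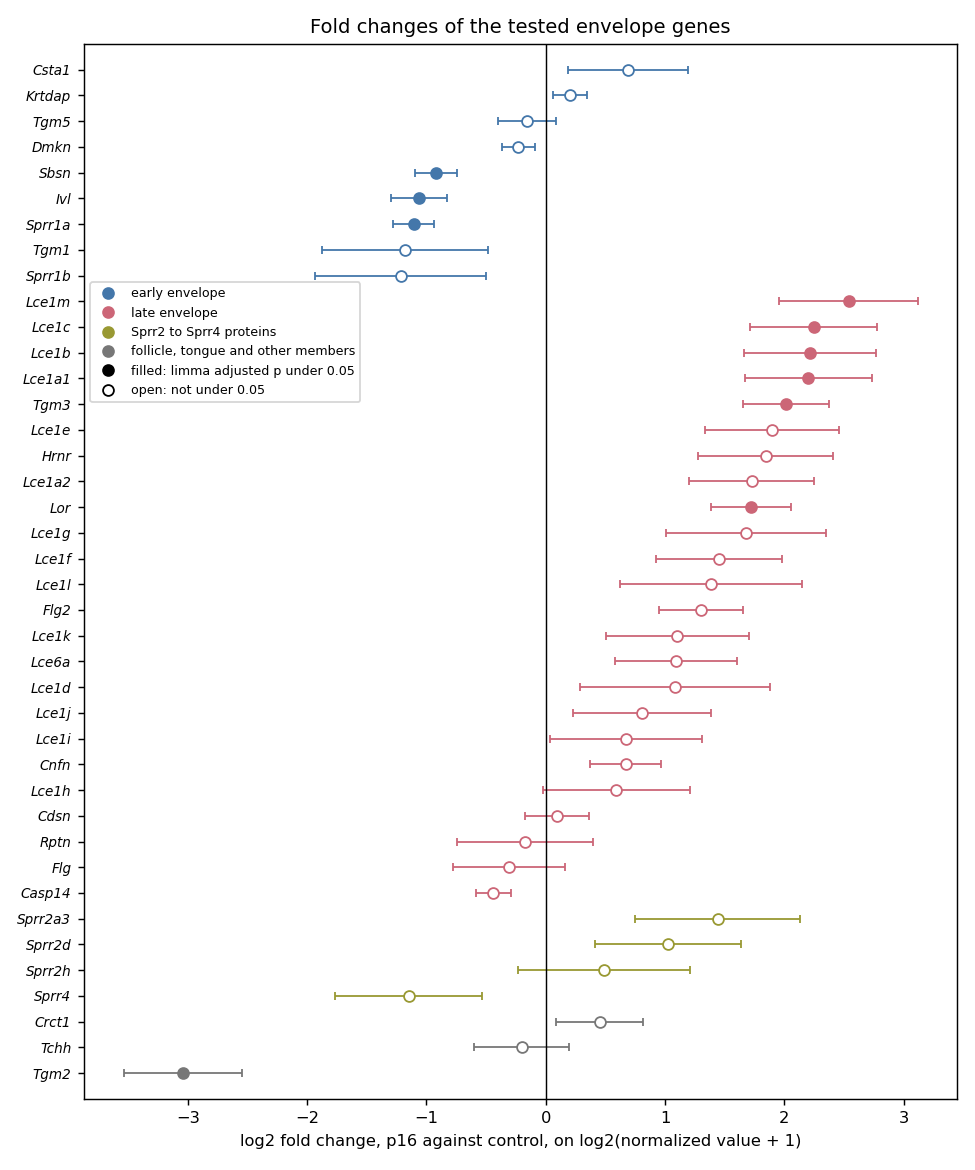
Log2 fold changes of the 40 tested genes, p16 against control, on log2(normalized value + 1), with whiskers of 1 standard error and filled points for a limma adjusted p under 0.05. Of 17 late envelope genes with a control mean of at least 1, 14 lie above 0, and of 9 early envelope genes 7 lie below 0.

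The median log2 fold change was -0.92 over the 9 early genes and 1.34 over the 24 tested of 36 late entries, against -0.00 over all genes tested. The early median is the value of Sbsn, which encodes a secreted protein. Because the lists were drawn up with earlier results of these data known, the medians only describe them and are no independent support for a contrast. Of the late genes 6 were called higher and 0 lower (unadjusted p under 0.05 for 13 and 1, or 10 and 1 of the 17 with a control mean of at least 1; DESeq2 called 8 and 0, and edgeR, which tested 9 of them, 3 and 0), and of the early genes 3 were called lower and 0 higher (the same 3 and 0 without adjustment, with DESeq2 and with edgeR). Over all 12782 genes tested, 1.24% were called higher and 2.61% lower, and 897 and 1141 had an unadjusted p under 0.05. The early median was -0.55 without control replicate 3, -0.57 with a filter at a mean of 5 and -0.62 with edgeR, and the late median was 2.02 with a pseudocount of 0.1. The 7 late genes with a control mean under 1 are all Lce1 genes, and without them the late median was 1.30. The 9 tested late genes outside the Lce family had a median of 0.67, with 6 above 0.

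In each sample, the median difference of the 17 late genes with a control mean of at least 1 from their control means on the log2 scale was 0.30, -0.54, 0.60 and -0.04 in controls and 0.57, 1.58, 1.42 and 1.96 in p16 samples. For the 9 late genes outside the Lce family it was 0.63, -0.53, 0.47 and -0.04 in controls and -0.04, 0.73, 0.51 and 1.29 in p16 samples. There the groups overlapped, with p16 replicates 1 and 3 under control replicate 1. The same median of the early genes was -0.05, -0.53, 0.54 and 0.10 in controls and -0.98, -0.53, -0.28 and -0.85 in p16 cells. For the early genes too the groups overlapped, with control replicate 2 under p16 replicate 3. Control replicate 3 was the highest control for the 17 late and the 9 early genes, and p16 replicate 1 had the lowest of both medians among the p16 samples, its late median being under that of control replicate 3. Of the same 17 late genes, 5, 12, 12 and 13 were above every control in p16 replicates 1 to 4, and 3, 1, 1 and 1 were below. Over all genes tested 21.7, 19.1, 21.9 and 25.6% were above every control and 21.9, 19.3, 22.0 and 27.8% below, in the same order. Of the 9 early genes, 5, 4, 3 and 5 were below every control in p16 replicates 1 to 4. Whether the early and late genes differ from each other was not tested, since the genes of a list are not replicates.

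The Sprr2 to Sprr4 genes, whose proline-rich proteins are made mainly in forestomach, tongue, uterus and stressed skin, were close to the limit of counting. Of 13 entries, 7 had no read (Sprr2a1, Sprr2a2, Sprr2b, Sprr2i, Sprr2j-ps, Sprr2k and Sprr3). The last 300 bases of Sprr2a1 and Sprr2a2 are shared with each other at 100% of 50-base words, so reads from them could not have been assigned to either. Sprr2e had 1 read in controls and 2 in p16 cells, and Sprr2f had 3 and 1. Sprr2a3 had 3, 0, 11.7 and 0 in control cells and 8, 10.1, 4.4 and 4.1 in p16 cells, Sprr2d had 2 and 10 reads over the groups and Sprr2h 13 and 24. Of the 50-base words of Sprr2a3, 71.1% are shared with Sprr2a1, so its values are uncertain. None of these 3 passed (limma adjusted p = 0.333, 0.458 and 0.820; 0 at an unadjusted p under 0.05), and with DESeq2 neither Sprr2a3 nor Sprr2h did. Summed over the 11 Sprr2 genes the values were 3, 1.3, 23.4 and 6.2 in controls and 10.4, 13.2, 25.7 and 9 in p16 samples. Control replicate 3 was above 3 of the 4 p16 samples, so the groups overlapped. Sprr4 had 5, 0, 11 and 3 reads in control cells and 1 in each p16 sample (log2 fold change -1.15, standard error 0.61, limma adjusted p = 0.391), and without control replicate 2, its lowest control, the limma adjusted p was 0.0444.

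Tgm2 (ENSMUSG00000037820, chromosome 2, 158116402 to 158146436, minus strand), the transglutaminase made by many cell types that acts outside the envelope, had 14.8, 23.1, 18.4 and 47.4 in control cells and 3.2, 3.1, 3.5 and 0 in p16 cells. It was lower in every p16 sample than in any control, and p16 replicate 4 had no read. Tgm2 fell from 25.9 ± 14.7 to 2.45 ± 1.64 (SD, n = 4 each; log2 fold change -3.04, standard error 0.49, limma adjusted p = 0.00293). Exons of Rprd1b on the opposite strand overlap Tgm2, and whether the counting used strand is not given in the sources used here. Of the 4 tested transglutaminases, Tgm3 was called higher, Tgm2 lower, and Tgm1 and Tgm5 were not called. Tgm4 had 1 read in each control and 0 in each p16 sample, a ratio whose 95% exact interval, 0 to 1.24, includes no change, and was not tested. Tgm6 and Tgm7 had no read. Trichohyalin (Tchh), a protein of the follicle's inner root sheath, had 7.58 ± 3.52 in control cells and 6.40 ± 2.78 in p16 cells (SD, n = 4 each; limma adjusted p = 0.877). Crct1 had 14.8 ± 6.24 and 20.4 ± 9.59 (SD, n = 4 each; limma adjusted p = 0.616). Crnn, a gene of oesophagus and tongue, had 4 reads in control replicate 3 and 1 in p16 replicate 1, and Tchhl1 and Lelp1 had none.

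Of the 67 entries, 47 lie in the epidermal differentiation complex, between 92080271 and 93471980 on chromosome 3 of GRCm38, 14 lie elsewhere and the 6 Flg entries at 0 had no position in the annotation used. The table holds 56 genes of that interval, of which 34 were tested, 29 from the set and 5 others. From Lor at one end, the next called genes are Sprr1a and Ivl, both lower, with Sprr4 and 2310046K23Rik between them. On the far side of Ivl begins the row of Lce1 genes, of which 4 were called higher, and beyond it lie Flg2 and Hrnr on either side of Flg. Of the 5 tested neighbours outside the set, 2 were called higher and 0 lower, and both lie among the Lce genes. Kprp, a keratinocyte proline-rich protein of the upper layers, had 6.7, 3.9, 6.7 and 4.6 in control cells and 9.6, 19.5, 12.4 and 17.3 in p16 cells (log2 fold change 1.26, limma adjusted p = 0.0397), with no overlap between the groups. The other, 2310050C09Rik, was higher by 1.19 on the log2 scale (limma adjusted p = 0.0237), and was named after its values were seen. Its groups overlapped, with p16 replicate 1 at 40 and control replicate 1 at 43.8.

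**Figure D3:**
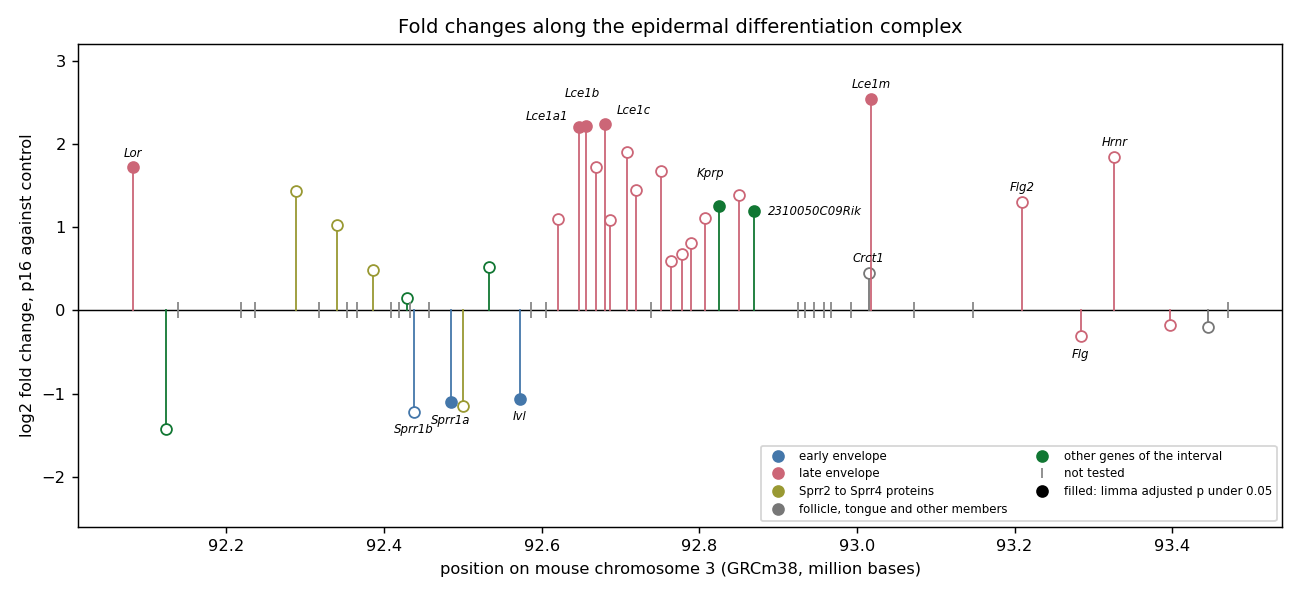
Log2 fold changes (vertical axis, p16 against control) of the genes between 92080271 and 93471980 on mouse chromosome 3 against their position in Mb (GRCm38), with ticks for genes not tested and filled points for a limma adjusted p under 0.05. Sprr1a and Ivl lie below 0, and Lor lies above 0.

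Promoter windows from RefSeq (GRCm38.p6) matched 57 of the 61 symbols, and Crct1, Lce1f, Sprr2j-ps and Tgm2 had no entry. The 250 bases before each transcription start were searched on both strands for TGANTCA, the AP-1 motif, for the Grainyhead-like motif AACCGGTT and for TATAAA, the TATA box. TGANTCA was in 8 of 12 windows of early genes (66.7%) and in 4 of 30 windows of late genes (13.3%), where 6.17% of the 19604 windows of all genes in the table held it. It was also in 7 of 12 windows of the Sprr2 to Sprr4 genes (58.3%), none of which was called, and in none of the 13 Lce1 windows. Counted by gene, 6 of 9 early and 4 of 29 late genes had it, against 7.27% of all genes. Of the early windows with it, 3 are those of Dmkn. TATAAA was in 23 of the 62 windows of the set (37.1%) and in 11.2% of all windows, and in 19 of the 62 it began between 40 and 20 bases before the start, against 2.96% of all windows. AACCGGTT was in 0 of the 62 windows and in 0.153% of all windows. The 250 bases of 3 genes that were lower and 4 that were higher are printed from 5′ to 3′ on the strand of the gene, to set early beside late, with each match to the motifs in capitals. They are Sprr1a (chr3:92485882-92486131, minus strand), Ivl (chr3:92573736-92573985, minus strand), Sbsn (chr7:30751221-30751470, plus strand), Lor (chr3:92083143-92083392, minus strand), Tgm3 (chr2:130012090-130012339, plus strand), Lce1m (chr3:93019062-93019311, minus strand) and Lce1c (chr3:92678997-92679246, plus strand).
Sprr1a: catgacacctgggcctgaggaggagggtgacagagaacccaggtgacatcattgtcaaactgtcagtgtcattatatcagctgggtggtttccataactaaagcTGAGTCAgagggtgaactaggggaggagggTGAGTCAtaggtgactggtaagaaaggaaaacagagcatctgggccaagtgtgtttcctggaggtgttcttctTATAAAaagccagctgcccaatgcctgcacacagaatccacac
Ivl: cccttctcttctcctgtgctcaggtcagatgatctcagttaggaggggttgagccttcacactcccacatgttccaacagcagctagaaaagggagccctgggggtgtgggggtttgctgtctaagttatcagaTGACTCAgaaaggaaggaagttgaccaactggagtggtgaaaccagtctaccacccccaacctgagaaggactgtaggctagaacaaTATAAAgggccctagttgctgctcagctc
Sbsn: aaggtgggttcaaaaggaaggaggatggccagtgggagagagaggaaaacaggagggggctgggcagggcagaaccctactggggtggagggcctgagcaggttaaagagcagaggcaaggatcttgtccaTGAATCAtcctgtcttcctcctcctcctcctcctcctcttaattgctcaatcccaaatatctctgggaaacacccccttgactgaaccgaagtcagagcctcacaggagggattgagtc
Lor: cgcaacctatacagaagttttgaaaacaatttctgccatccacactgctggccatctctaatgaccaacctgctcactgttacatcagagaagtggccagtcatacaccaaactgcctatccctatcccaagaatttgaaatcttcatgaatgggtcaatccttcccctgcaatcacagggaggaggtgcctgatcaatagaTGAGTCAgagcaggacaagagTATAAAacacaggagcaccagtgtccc
Tgm3: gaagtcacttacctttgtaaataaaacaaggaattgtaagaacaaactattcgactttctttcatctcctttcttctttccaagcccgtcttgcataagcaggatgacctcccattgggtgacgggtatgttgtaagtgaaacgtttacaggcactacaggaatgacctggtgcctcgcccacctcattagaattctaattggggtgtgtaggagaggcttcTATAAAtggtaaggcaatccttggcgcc
Lce1m: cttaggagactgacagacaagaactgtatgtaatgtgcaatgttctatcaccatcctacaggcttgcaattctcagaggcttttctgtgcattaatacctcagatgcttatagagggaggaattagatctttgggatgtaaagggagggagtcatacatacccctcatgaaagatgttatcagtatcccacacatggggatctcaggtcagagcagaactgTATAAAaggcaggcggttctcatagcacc
Lce1c: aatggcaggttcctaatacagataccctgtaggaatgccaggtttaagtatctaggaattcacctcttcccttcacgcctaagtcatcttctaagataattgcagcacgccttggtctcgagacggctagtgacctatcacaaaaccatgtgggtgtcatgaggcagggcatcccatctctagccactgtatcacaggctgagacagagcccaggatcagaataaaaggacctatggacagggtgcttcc
The 3 windows of lower genes each held the AP-1 letters, which began 116 bases before the start in Ivl, 119 in Sbsn and both 146 and 116 in Sprr1a. Windows of the early genes Dmkn, Krtdap and Sprr1b, which were not called and are not printed, held the AP-1 letters too. Of the windows of higher genes, that of Lor held the AP-1 letters, 48 bases before the start. The windows of Ivl, Lor, Tgm3, Lce1m and Sprr1a held TATAAA from 29, 27, 28, 29 and 43 bases before the start, and that of Lce1c held none of the 3 motifs. A match describes the letters only, and binding at these windows was not measured.

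Other proteins of the envelope and of the upper layers moved in both directions. Of 20 such genes, 19 were tested, 2 were called higher and 2 lower, with a median log2 fold change of 0.09. Kprp, described above, and Krt2 were higher. Krt2, the keratin of the granular layer, had 0.7, 5.1, 1.7 and 4.6 in control cells and 5.6, 14.8, 11.5 and 49.3 in p16 cells, with a difference on the log2 scale of 2.18 ± 0.57 (standard error; limma adjusted p = 0.0476). All p16 values of Krt2 were above all control values, and p16 replicate 4 was far above the others. The lower genes were Cst6, an inhibitor of the protease legumain, with 3227.0, 2920.9, 5252.6 and 5177.7 in control cells and 1347.3, 1662.2, 1745.0 and 1574.5 in p16 cells (log2 fold change -1.34, limma adjusted p = 0.000442), and Calml3, a calmodulin-like protein, with 761.9, 445.3, 872.8 and 777.7 and 259.9, 293.6, 319.2 and 218.7 (log2 fold change -1.36, limma adjusted p = 0.000538). The groups did not overlap for either. Krt1 and Krt10, the keratins of the spinous layer, had log2 fold changes of 0.57 and 0.14 (limma adjusted p = 0.0952 and 0.721), and were named after their values were seen.

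Of 18 genes that process the envelope and filaggrin, 16 were tested, 4 were called lower and 0 higher (unadjusted p under 0.05 for 8 and 0), and the median was -0.35. They are the kallikreins Klk7 and Klk6, which cut the links between surface cells, and the cathepsins Ctsl and Ctsd. Klk7 had 722.5, 596.8, 872.8 and 1020.6 in control cells and 183.1, 287.3, 290.8 and 252.4 in p16 cells. Every p16 sample was under every control, and the log2 fold change was -1.66 (standard error 0.17, limma adjusted p = 8.49e-05). The log2 fold changes were -2.21 for Klk6, -1.02 for Ctsl and -0.73 for Ctsd (limma adjusted p = 0.00304, 0.00223 and 0.00854), and these groups did not overlap either. Of 19 genes for the lipids bound to the envelope, 17 were tested and 0 were called (limma p under 0.05 before adjustment for 1 higher and 0 lower), with a median of 0.07. The gene of this list with the highest mean was Abhd5, a cofactor in the making of skin ceramides, with 346 ± 27.0 in control cells and 381 ± 25.0 in p16 cells (SD, n = 4 each; limma adjusted p = 0.535). Of 29 regulators of differentiation 28 were tested and Cebpb alone was called, with a p under 0.05 before adjustment for 3 lower and 1 higher, and a median of 0.06. Cebpb, a transcription factor of the suprabasal layers, had 842.0, 915.0, 915.4 and 980.8 in control cells and 580.5, 705.8, 791.8 and 658.6 in p16 cells (log2 fold change -0.42, limma adjusted p = 0.0339), and every p16 sample was under every control.

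Markers of other keratinocytes differed between the groups in the same samples. Of 14 basal keratinocyte genes, led by Krt5, Itga3 was called higher and Krt15 lower, and their summed values were 38276.3, 57192.5, 41577.0 and 58800.6 in controls and 41255.5, 39629.7, 43064.3 and 44258.8 in p16 samples. Of 6 stress keratins and related genes, all tested, Krt6a alone was called, lower, and the sums, led by Krt17, were 7365.7, 7614.2, 12340.7 and 11776.4 in controls and 6097.5, 6041.5, 8424.2 and 6031.6 in p16 samples. Of 10 hair-follicle bulge genes, all tested, 8 were called lower and 0 higher. They are Cd34, Lhx2, Tcf7l1, Nfatc1, Tcf7l2, Fgf18, Sox9 and Krt15, and the sums, led by Krt15, were 12339.7, 16199.6, 12046.0 and 15887.7 in controls and 9261.3, 9333.2, 9260.5 and 9197.2 in p16 samples. The bulge list shares Krt15 and Postn with the basal list. Of 8 upper follicle genes, led by Krt79 and all tested, Cst6, Gata6, Atp6v1c2 and Plet1 were called lower and Lgr6 higher, with sums of 9063.0, 8865.4, 12003.5 and 13510.3 in controls and 7116.8, 7954.4, 8439.3 and 7577.4 in p16 samples. Cst6 is thus a marker of the upper follicle as well as an envelope protein. Of 9 sebaceous gland genes, 8 were tested and 6 were called lower, namely Scd1, Cidea, Plin2, Elovl3, Pparg and Awat2, with sums, led by Scd1, of 1505.1, 1269.2, 1543.4 and 1628.6 in controls and 507.7, 748.8, 590.5 and 604.3 in p16 samples. Of 16 genes of the inner root sheath and hair shaft, 15 were in the table and 8 tested. Krt35 was called lower, with 14 reads in control cells and 0 in p16 cells. Taking the p16 samples at 3 reads in total gives 5.72-fold, which leaves out counting error in the controls. Krt34 was at 0 throughout. The sums, led by Msx2, were 71.2, 50.1, 101.1 and 135.8 in controls and 76.8, 85.9, 74.4 and 58.2 in p16 samples. The median log2 fold changes were 0.16 for basal, -0.91 for stress, -0.71 for bulge and -0.63 for upper follicle genes. For sebaceous gland genes the median was -1.78 (-1.87 with Mc5r, at 0 in p16 cells, taken at 3 reads there). For inner root sheath and hair shaft genes it was -0.67 (-0.67 with Krt35 taken in the same way). The part of these cells in the differences of the envelope genes was not tested.

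Markers of other cell types in skin were also measured. Of 7 melanocyte genes, 6 were tested and Dct and Tyrp1 were called lower, with sums, led by Dct, of 529.7, 224.7, 131.0 and 258.2 in controls and 72, 142.9, 71.9 and 51.7 in p16 samples. Of 9 fibroblast genes, 6 were tested, Dcn was called higher and Vim lower, Lum was at 0 in every sample, and the sums, led by Dcn, were 116.3, 69.5, 37.5 and 94.7 in controls and 107.2, 117.9, 231.3 and 48.6 in p16 samples. Col1a1 and Col1a2, the collagen genes that define fibroblasts, had means of 1.78 and 10.4 in control cells and 5.68 and 2.68 in p16 cells, were not called, and were named after their values were seen. Of 7 T cell genes, 4 were in the table and 3 tested, none was called (limma p under 0.05 before adjustment for 0 higher and 1 lower), and the sums, led by Cd3d, were 14.8, 18, 16.6 and 7.6 in controls and 11.2, 13.3, 3.6 and 9 in p16 samples. Of the 8 Langerhans and myeloid genes, in 9 entries, 8 entries were tested and none was called (limma p under 0.05 before adjustment for 1 higher and 1 lower). Lyz2 was at 0 throughout, and the sums, led by Epcam, which keratinocytes of the follicle also make, were 1269.2, 1084.5, 1309.5 and 1161.2 in controls and 1104.2, 1058.7, 1023.2 and 760.5 in p16 samples. Of 6 endothelial genes, Cdh5, Kdr, Emcn and Cldn5 were at 0 in every sample, Pecam1 alone was tested and was not called (limma adjusted p = 0.444; 0 at an unadjusted p under 0.05), and the sums were 5.2, 1.3, 5 and 3 in controls and 7.2, 4.7, 6.2 and 5.8 in p16 samples. The median log2 fold changes were -1.76, -0.14, -0.14, 0.20 and 0.74 in the order of these lists. Their part in the results for the envelope genes was not tested.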

How the data were processed

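Expression was measured by mRNA-seq in 4 control and 4 p16 samples, grouped by their labels. The other 13 samples of the series were not analysed here. By the methods of the authors, libraries of 3′ ends followed CEL-Seq2 in adapted form, and Cutadapt trimmed the reads. The submitters' processing notes name TopHat2, HTSeq, DESeq2 and GRCm38. The unit of the deposited table is signal, here reads of a gene over the size factor of the sample. The authors' columns of group means, test scores and p-values were not used. Use of molecular identifiers and strand in counting is not given in the sources used here.

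The value of 1 read was found from the low values of each sample and refined on higher ones. Of the low values, 100% were whole reads within 0.1 read. That bound was not applied to high values. Reads on genes ranged from 1760953 to 3414362 per sample, and intervals and floors hold counting error alone. The comparison used limma 3.58.1 (R 4.3.3, eBayes with trend) on log2(value + 1), which understates the change of low genes, for genes with a mean of at least 1, with Benjamini-Hochberg adjustment over all of them. Replicates are pools of mice. Where a single gene is tested alone, the test is an exact two-sided permutation test. Count tests with edgeR 4.0.16 and DESeq2 1.42.0 on the recovered reads, other pseudocounts, filters and scalings, a replicate block and left-out samples were alternatives. The fits were tried on simulated data, with changes planted only in genes with more reads than any Lce1 gene. That trial therefore cannot speak for calls on such low genes.

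The members and gene lists were chosen with earlier results of these data known. Genes named are every member called or without overlap between groups, all early genes, Lor, Flg, Flg2, Hrnr, Tgm3, Casp14, Cdsn and Cnfn, untested members with their reads, and in other lists the called genes or, with none, the gene with the highest mean. Other names were added after values were seen. Gene coordinates come from GENCODE M21 (GRCm38) and promoters from RefSeq.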

Additional observations from a re-analysis of the deposited data

Results flagged for a closer look

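The 4 values of each group of samples were examined for the 40 tested envelope genes, 52 other tested genes, among them those whose values the text gives, 26 summed lists and 2 transgenes. Of these 240 groups, 17 held a sample far from the other 3, where chance gives about 1 group in 20.

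Dmkn was 1443.0 in p16 replicate 4, above the 1114.6 to 1158.9 of the other p16 samples. In the same sample Tgm2 was 0 (others 3.1 to 3.5, a gap of 4 reads), Epcam 615.0 (others 865.1 to 911.5) and Atp6v1c2 14 (others 23.2 to 24.2). In p16 replicate 2, Dct was 47.6 (others 9 to 14.4) and Elovl3 17.2 (others 4.8 to 5.8). The summed stress keratins were 8424.2 in p16 replicate 3, above the 6031.6 to 6097.5 of the others, and Sprr2h was 15.1 there (others 0.8 to 2.5). Nfatc1 was 215.9 in p16 replicate 1 (others 193.2 to 196.8), and Plet1 173.3 in control replicate 2 (others 262.8 to 268.1).

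The other cases rest on 1 or 2 reads. Sprr2d (1.7), Lce1f (0.8) and Lce1g (0.8) in control replicate 3, Lce1e (1.5) in control replicate 1 and Lce1k (1.3) in control replicate 2 were above controls at 0. Lce1a2 was 0 in control replicate 2 (others 1.5 to 1.7), and Sprr4 was 0.9 in p16 replicate 3 (others 0.8), where each p16 sample had 1 read.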

How the results depend on the processing

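Over all genes, 159 were called higher and 334 lower. Leaving out 1 sample at a time gave 69 to 196 higher and 177 to 343 lower, leaving out replicate 3 of both groups gave 66 and 157, and an unadjusted p under 0.05 gave 897 and 1141. Of the envelope genes, 6 were called higher and 4 lower. With 1 sample left out the counts were 2 to 9 and 3 to 5, and without replicate 3 of both groups 3 and 2. The number called higher was 2 with a pseudocount of 0.1, 3 with edgeR, which tested fewer of them, and 13 at an unadjusted p, 10 of them with a control mean of at least 1. The late median of 1.34 was 2.02 with a pseudocount of 0.1 and 1.17 to 1.71 with 1 sample left out, and the early median of -0.92 was -1.12 to -0.55. Total count scaling moved the median of all genes to 0.03 and left 6 and 4 envelope genes called.

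By the methods, the replicates of a group came from 3 experiments and the mice of the groups were siblings kept together. The labels do not name the experiment of a sample. Which samples share an experiment is therefore not known. The comparison was left unpaired. In their deviations from the group means, same-numbered samples correlated at 0.0549, 0.00437, 0.0463 and 0.0827, and other pairs at -0.0997 to 0.0580. These values cannot decide whether same-numbered samples share an experiment, since the ranges overlap and no experiment is labelled. With a replicate block, limma called 216 genes higher and 392 lower, with 6 and 4 envelope genes, and edgeR with a replicate block called 198 and 346, with 3 and 4 envelope genes.

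The sign turned in at least 1 setting for 6 tested envelope genes, none of them called. Rptn kept its sign in 10 of 14 settings, Sprr2h in 12 of 14 and Tchh in 13 of 15. With 1 sample left out, Flg ran from -0.73 to 0.12 (above 0 without p16 replicate 1), Tgm5 from -0.344 to 0.0808 (above 0 without p16 replicate 4) and Cdsn from -0.107 to 0.397 (under 0 without control replicate 2, control replicate 4 or p16 replicate 4). Cdsn was -0.0486 with edgeR and -0.0138 with DESeq2. The cause of these moves was not tested. At this depth 27 of the 67 entries were not tested, 21 of them without a read.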

Other observations

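The GFP transgene, which both groups carry, measured 4152.0, 5798.2, 5458.0 and 5912.6 in the controls and 3624.4, 3978.8, 3161.8 and 3453.3 in the p16 samples, with every p16 sample under every control. It was called lower in p16 cells at the same threshold as the envelope genes. The part of this difference in the results for the envelope genes was not tested. Prr9, a neighbour of Lor on chromosome 3, had means of 7.53 in control and 2.75 in p16 cells (log2 fold change -1.43), and was not called (limma adjusted p = 0.256). Protein levels, cell layers and the second profiling of the series were not analysed here.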
